A study of Mus musculus with 24 samples.

Results

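The 76 genes described here encode proteins of the cytosolic ribosome of the mouse. They were chosen by name, as every symbol made of Rpl, Rps or Rplp and a number, with an optional a or x, plus Rpsa, with at least 100 counts summed over the 24 libraries. All 76 symbols that matched the pattern passed that minimum, out of 43280 gene symbols in the count table. Pseudogene symbols were left out. There were 43 proteins of the large 60S subunit, 30 of the small 40S subunit and the 3 proteins of the P stalk.

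The libraries came from 6 male Lgr5-EGFP mice on a C57BL/6 background, in which EGFP marks cells that express Lgr5. The NRG1 mice received 7.5 µg of neuregulin 1, a growth factor that binds ErbB receptors, injected into the peritoneum at intervals of 12 h over 5 days. The PBS mice received buffer on the same schedule, and intestinal crypts were collected on day 6. In each treatment replicates 1 and 2 came from mice 15 weeks old and replicate 3 from a mouse 11 weeks old. The labels call the mice littermates, and the litter of each is not given. Living crypt cells without CD31 or CD45 (no propidium iodide uptake) were gated into 4 populations on their EGFP and CD24 signals. Lgr5high-CD24low cells are the crypt base columnar stem cells by the labels, Lgr5med-CD24low cells their immediate progenitors, Lgr5low-CD24low cells the progenitors after those, and Lgr5neg-CD24neg cells the differentiated cells. Each mouse gave 1 library per population, so there were 3 libraries in each of the 8 groups. The design asks how NRG1 changes the transcripts of each population and how the populations differ.

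Each cytosolic ribosome holds a single copy of nearly every one of these proteins, so cells make them in near-equal numbers. Their mRNAs are among the most abundant in growing cells. Many begin with a C followed by a run of pyrimidines, the 5′ terminal oligopyrimidine (TOP) tract, through which mTORC1 controls their translation, and Myc is known to raise their transcription. In the crypt, dividing stem and progenitor cells have a high demand for ribosomes, which falls as cells differentiate.

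A TOP tract at the annotated start is shown here because it is the feature these genes are known to share and the choice by name did not use it. RefSeq's promoter table (GRCm38.p6) held 56 of the 76 genes. A C at the annotated start followed by at least 4 bases that were all C or T, read on the gene's own strand, was found in 13 of the 56 genes (23.2%), against 800 of 26969 other genes (2.97%). Some of the matches are printed from 5 bases before the start to 25 bases from the start onward, with the tract in capitals. They are 4 genes with lower counts after NRG1 in Lgr5high or Lgr5med cells (Rps27, Rps15a, Rplp2, Rps10), 2 with higher counts in Lgr5neg cells (Rps6, Rpl14), and the genes Rpl15 and Rpl35a.
Rps27, chr3:90213624-90213653, minus strand: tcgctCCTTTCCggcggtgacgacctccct
Rps15a, chr7:118116123-118116152, minus strand: gccatCTTCCCTCgccggtgagtgagtgtt
Rplp2, chr7:141447646-141447675, plus strand: tcttcCTTTCgccgccggacgccgccgagg
Rps10, chr17:27635220-27635249, minus strand: cgcccCTTCCTTTCCagcctccgcctcgga
Rps6, chr4:86857343-86857372, minus strand: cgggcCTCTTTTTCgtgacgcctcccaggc
Rpl14, chr9:120571512-120571541, plus strand: tctctCTTCTCgctgagcgccgccaacatg
Rpl15, chr14:18270962-18270991, minus strand: gccttCTTCCTTTCCTCTggcggcagccat
Rpl35a, chr16:33056477-33056506, plus strand: ccttcCTCTTTCCgccatcttggcgcctgt
The tracts were 5 to 13 bases long in these genes and stood in genes with lower as well as higher counts after NRG1. A gene without a match at the annotated start lacks these letters at that base only, since annotated starts can lie upstream of the tract.

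The libraries held 11176264 to 23343499 counts, of which the 2 mitochondrial ribosomal RNA genes took 37.6% to 62.4%. Levels are given as CPM, counts scaled to a common library total by TMM over all 24 libraries, and a log2 change is from edgeR's quasi-likelihood test with its standard error (SE) and a Benjamini-Hochberg adjusted p over all genes tested, called under 0.05. The sort markers followed the labels: the summed level of 5 stem cell genes was 2501 to 2896 CPM in Lgr5high NRG1 libraries and 36.1 to 46.0 CPM in Lgr5neg NRG1 libraries, and 2217 to 3251 CPM in Lgr5high PBS libraries and 61.7 to 65.1 CPM in Lgr5neg PBS libraries. It was 1373 to 1779 CPM in Lgr5med and 508 to 852 CPM in Lgr5low NRG1 libraries, and 715 to 1470 CPM in Lgr5med and 308 to 350 CPM in Lgr5low PBS libraries. In Lgr5neg cells the 15 immune markers summed to 59.6 to 474 CPM in NRG1 libraries and 98.5 to 211 CPM in PBS libraries, against 2.11 to 5.92 CPM in all other libraries. The 5 Paneth markers summed to 978 to 1622 CPM in Lgr5high NRG1 and 1441 to 2776 CPM in Lgr5high PBS libraries. In the same order they summed to 768 to 2576 and 937 to 2826 CPM in Lgr5med libraries. In Lgr5low libraries they summed to 658 to 4316 and 720 to 3889 CPM, and in Lgr5neg libraries to 177 to 554 and 265 to 595 CPM. Their part in the differences below was not tested. Bulk counts cannot tell fewer cells of a type from less RNA per cell. In the NRG1 against PBS comparisons the p-values measure the spread between 3 mice per treatment. In the other comparisons libraries of the same mouse entered the main tests as if independent, with no term for mouse. The shares of all genes tested given below are from the main tests. Counts at an unadjusted p under 0.05 or under other settings stand without such a share. They cannot tell a trait of these genes from a change over all genes.

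Ribosomal protein genes have many processed pseudogenes, which limits what their counts can show. Of the 76-base windows of each gene's GENCODE transcript, the length of the reads, a median of 50.67% were found unchanged in a transcript of another gene. In 2 genes, Rps3 among them, no such window was found, 9 genes had under 10% and 39 genes had over 50%. The highest share was 98.5%, in Rps27 (chr3:90212522-90213651), whose retrogene Rps27rt carries nearly the same sequence. A window present in 2 genes can be dropped, or given to the wrong row, depending on the counting, so levels of such genes are uncertain. Rows named as pseudogenes of these genes, by the gene's symbol and -ps, held counts equal to 0.68% to 0.89% of those in the 76 genes. Many other rows that share windows have other names. All sharing rows together held 16487 counts beside 114848 in Rpl21, and 3 beside 121789 in Rpl8. Part of such counts can be reads of the sharing gene's own sequence. Windows shared with a gene that overlaps at the same place were counted too. Rpl5 is a case, with 46.6% of its exon bases overlapped by Fam69a and 92.4% of its windows shared.

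Overlap with other genes was the second limit, and the strand setting of the counting is not given in the sources used here. Exons of 12 of the 76 genes overlapped another annotated gene, and in 5 of them over 50% of exon bases did. Rpl24, a 60S protein, had 119 counts over all libraries, with 71.5% of its exon bases inside Gm28037 and 80.9% of its windows shared. It was listed at 0 to 0.582 CPM per library, passed the filter on low counts in none of the NRG1 against PBS comparisons, and is not read as expression of the gene. The other 4 genes differed widely in level per kilobase of annotated transcript. Rpl23a, with 55.4% of exon bases overlapped by Tlcd1, and Rpl35, with 68.3% overlapped by Arpc5l and Wdr38, had 40.2 and 28.1 CPM per kb. Rps10, with 91.6% overlapped by RPS10-NUDT3, and Rpl13a, with 59.3% overlapped by Gm45713 and Mir5121, had 252 and 204 CPM per kb. Overlap was counted on either strand, and its part in these levels was not tested.

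Per kilobase of annotated transcript, averaged over the 24 libraries, Rpl32 was the highest at 811 CPM per kb, followed by Rps27 at 733, Rpl31 at 628, Rpl41 at 627 and Rplp2 at 623. The lowest were Rpl24 at 0.354, Rpl35 at 28.1, Rpl23a at 40.2, Rps20 at 53.0 and Rpl27a at 68.9 CPM per kb. The order depends on the length used. Per kilobase of coding sequence Rpl41, with 75 coding bases in a transcript of 437 nt, was the highest at 3655 CPM per kb and Rps29 followed at 1277. Rps20 had 550 CPM per coding kb, since its annotated transcript of 3706 nt holds 357 coding bases. Rpl24, Rpl23a and Rpl35 were the 3 lowest by either length.

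Ribosomal protein genes took their lowest share of counts in differentiated cells under both treatments and their highest in the stem cells of PBS mice. Their summed share of counts outside the mitochondrial ribosomal RNA fell stepwise across the populations of PBS mice. It was 4.57%, 4.42% and 4.57% in Lgr5high, 4.23%, 3.57% and 3.58% in Lgr5med, 2.91%, 2.95% and 2.52% in Lgr5low, and 1.16%, 1.26% and 1.07% in Lgr5neg PBS libraries. Lgr5high libraries had 3.89 times the share of Lgr5neg libraries in PBS mice. In NRG1 mice it was 3.76%, 3.50% and 3.51% in Lgr5high, 4.43%, 3.72% and 2.96% in Lgr5med, 3.63%, 3.04% and 2.32% in Lgr5low, and 1.61%, 1.66% and 1.27% in Lgr5neg libraries. The ratio of Lgr5high to Lgr5neg in NRG1 mice was 2.37. In NRG1 mice the Lgr5high range lay inside that of Lgr5med, while in PBS mice all Lgr5high libraries were above all Lgr5med libraries.

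**Figure D1:**
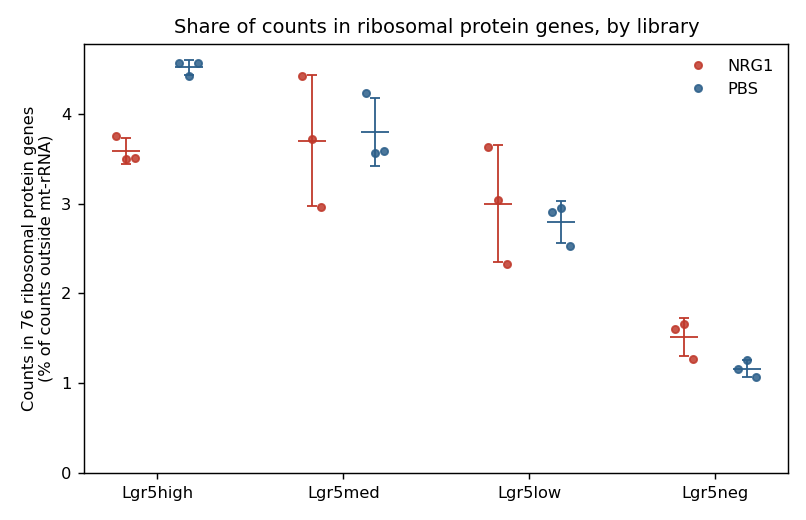
Share of counts outside mitochondrial ribosomal RNA (%) in the 76 ribosomal protein genes, 1 point per library, with mean and SD of 3 mice; NRG1 is left of PBS in each population. In PBS mice the share is stepwise lower from Lgr5high to Lgr5neg, and the Lgr5high NRG1 libraries (3.50% to 3.76%) lie below the Lgr5high PBS libraries (4.42% to 4.57%).

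In PBS mice, 74 of the 75 genes tested were higher in Lgr5high than in Lgr5neg cells, against 35.4% higher and 32% lower of all genes tested. The median log2 difference was 1.34, against 0.09 over all genes. The exception was Rps27, with 489, 343 and 251 CPM in Lgr5high and 278, 229 and 193 CPM in Lgr5neg libraries (log2 0.62, SE 0.26, adjusted p = 0.0518). The largest difference was in Rpl12, which sits at the base of the stalk, with 286, 260 and 365 CPM in Lgr5high and 72.5, 67.0 and 54.3 CPM in Lgr5neg libraries. Its log2 difference was 2.22 (SE 0.18, adjusted p = 1.56e-09), and all Lgr5high libraries were above all Lgr5neg libraries. Rpl3, near the peptidyl transferase centre, was 3.86-fold higher, and Rpl36a had a log2 difference of 1.93. Smaller differences stood in Rpl10 (log2 0.72) and Rpl41 (log2 0.73).

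Most of that difference lay between Lgr5low and Lgr5neg cells. In PBS mice 70 of 75 genes stood higher in Lgr5low than Lgr5neg cells, against 30.6% higher and 25.3% lower of all genes tested, with a median log2 difference of 0.75 (0.11 over all genes). Rpl36, Rpl37a, Rplp1, Rps14 and Rps27 were not called. Rps2 was 2.49-fold and Rpl12 3.04-fold higher in Lgr5low cells. Enterocyte markers were higher in Lgr5neg libraries. The 6 markers summed to 3106 to 4605 CPM in Lgr5low and 27330 to 54991 CPM in Lgr5neg PBS libraries. The part of enterocyte transcripts in the share of counts was not tested.

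The steps among the 3 Lgr5+ populations of PBS mice had smaller medians. Secretory markers differed between these populations too: the 5 goblet markers summed to 326 to 1508 CPM in Lgr5high, 4791 to 13862 CPM in Lgr5med and 12745 to 23631 CPM in Lgr5low PBS libraries, and the 5 enteroendocrine markers to 23.1 to 140, 214 to 551 and 266 to 1131 CPM in the same order. Their part in the steps was not tested. Between Lgr5high and Lgr5med cells 5 of 75 genes were called, all higher in Lgr5high, against 2.44% higher and 6.72% lower of all genes tested, with a median log2 difference of 0.23. They were Rps13, Rps6, Rps28, Rpl5 and Rps9, at log2 differences of 0.42 to 0.60. Rpl5, which with Rpl11 and the 5S RNA binds Mdm2, had 273, 317 and 374 CPM in Lgr5high and 243, 228 and 216 CPM in Lgr5med libraries. With mouse as a block 9 genes were called. Without Lgr5high replicate 3, or without Lgr5med replicate 2 or 3, none were, and without Lgr5med replicate 1 there were 3.

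Between Lgr5med and Lgr5low cells 9 of 75 genes were higher in Lgr5med cells, against 2% higher and 5.59% lower of all genes tested, with a median log2 difference of 0.31. They included Rpl13 (log2 0.69, adjusted p = 0.00803), Rps26 (log2 0.63) and Rpl36a (log2 0.62). With mouse as a block 22 genes were called. Without Lgr5med replicate 1 none were, without Lgr5low replicate 1 there was 1, without Lgr5low replicate 3 there were 4, and without Lgr5med replicate 2 or 3 there were 5.

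In NRG1 mice genes were called against Lgr5neg cells but not among the Lgr5+ populations. Of 76 genes tested, 50 were higher in Lgr5high than in Lgr5neg cells, against 33.5% higher and 32% lower of all genes tested, with a median log2 difference of 0.59. From Lgr5low to Lgr5neg, 44 were called, all higher in Lgr5low, against 30.4% higher and 26.6% lower of all genes tested, with a median of 0.51. That count was 15 without Lgr5low replicate 1, 19 without Lgr5neg replicate 3 and 29 without Lgr5low replicate 2. Rpl24 is among the 44, on a few counts. None of the 76 genes was called between Lgr5high and Lgr5med cells (median log2 difference -0.12), nor between Lgr5med and Lgr5low cells (0.19), where 0.594% and 0.923% of all genes tested were called higher and 2.52% and 3.8% lower. An unadjusted p under 0.05 was seen in 1 and 2 of the 76, and DESeq2 called 0 in both.

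**Figure D2:**
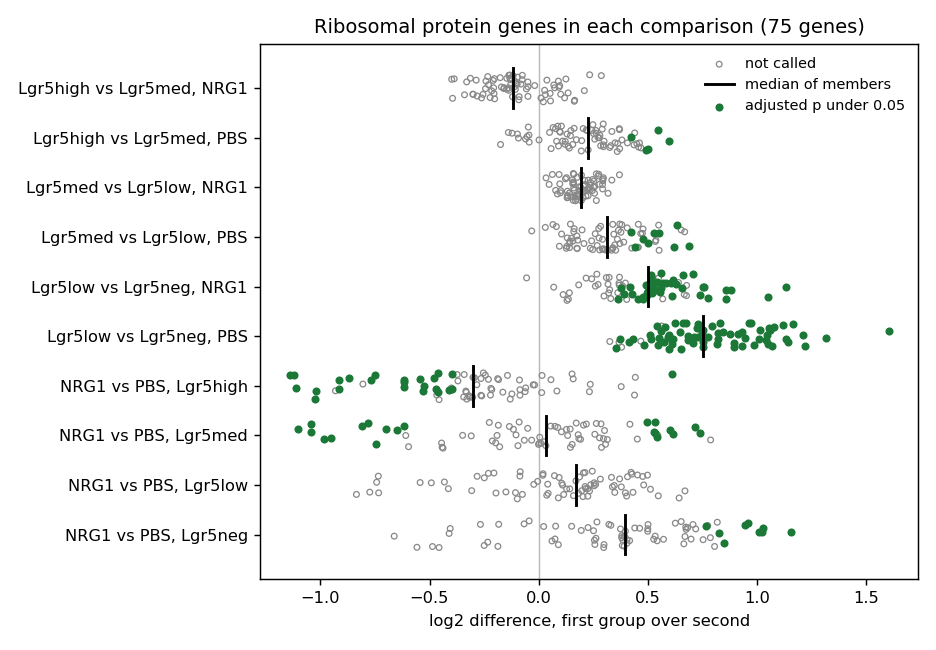
log2 difference of 75 ribosomal protein genes in 10 comparisons (Rpl24 left out), 1 point per gene, with the median as a bar and genes with an adjusted p under 0.05 filled. Differences between Lgr5low and Lgr5neg cells lie to the right (median 0.75 in PBS mice), and the NRG1 against PBS medians run from -0.30 in Lgr5high to 0.40 in Lgr5neg cells.

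After NRG1 the median change of the ribosomal protein genes was below 0 in stem cells and above 0 in differentiated cells, with a wide spread from gene to gene. In Lgr5high cells 23 of 75 genes were lower and 1 was higher, against 4.15% of all genes tested lower and 3.18% higher. The median log2 change was -0.30, against 0.01 over all genes. Proliferation markers moved the other way, with 5 genes summing to 2035 to 2678 CPM in Lgr5high NRG1 and 1502 to 1652 CPM in Lgr5high PBS libraries, without overlap, and their part in the difference was not tested. The 60S proteins had 13 lower and 1 higher of 42 tested, and the 40S proteins 9 lower of 30. The number lower was 12 to 14 when Lgr5high NRG1 replicate 1, 2 or 3, or PBS replicate 2, was left out, and the number higher was 0 without NRG1 replicate 2 or 3, or without PBS replicate 2, and 6 without PBS replicate 3.

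The 40S protein Rps29 (chr12:69157722-69159186) had 119, 152 and 170 CPM in Lgr5high NRG1 and 401, 330 and 236 CPM in Lgr5high PBS libraries. All NRG1 libraries were below all PBS libraries, and the log2 change was -1.12 (SE 0.19, adjusted p = 0.00583). The 60S protein Rpl37 (chr15:5116645-5119140) had 155, 161 and 184 CPM in NRG1 and 462, 387 and 261 CPM in PBS libraries (log2 change -1.14, SE 0.18, adjusted p = 0.00256). Rps25 (chr9:44407139-44410427), a 40S protein known for its part in initiation from internal ribosome entry sites, had 199, 191 and 193 CPM in NRG1 and 495, 441 and 255 CPM in PBS libraries (log2 change -1.02). Rps15a fell by 1.02 and Rpl37a by 1.11 on the log2 scale. PBS replicate 3 was the lowest PBS library for each of these genes. Rps29, Rpl37 and Rps15a stayed under the threshold with any 1 library left out. Rps25 was above it without NRG1 replicate 1, 2 or 3 or PBS replicate 2 (adjusted p up to 0.0908), and Rpl37a without NRG1 replicate 1 or 2 or PBS replicate 2 (up to 0.114).

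Rpl10a (chr17:28328471-28331033), a protein of the L1 stalk, was the single gene that rose in Lgr5high cells. It had 487, 573 and 653 CPM in NRG1 and 411, 303 and 420 CPM in PBS libraries, a log2 change of 0.61 (SE 0.15, adjusted p = 0.0199). The call was lost without NRG1 replicate 2 or 3 or PBS replicate 2 (adjusted p up to 0.11) and in the model of all 24 libraries (0.0641). Of its windows 87.6% were shared with pseudogenes. Rpl10, which joins the 60S subunit late, had a log2 change of 0.44 (adjusted p = 0.0638), and Rpl29 one of 0.44 (adjusted p = 0.05), with all NRG1 libraries above all PBS libraries in both.

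In Lgr5med cells 9 of 75 genes rose and 11 fell after NRG1, against 3.76% higher and 5.79% lower of all genes tested, and the median log2 change was 0.03. Enterocyte markers summed to 416 to 860 CPM in Lgr5med NRG1 and 1225 to 1499 CPM in Lgr5med PBS libraries, and proliferation markers to 1466 to 1772 CPM in NRG1 and 1278 to 1319 CPM in PBS libraries, and the part of either was not tested. The 11 that fell included 10 of the 23 that fell in Lgr5high cells (43.5% of those 23 and 90.9% of the 11), and the other was Rps27. The populations came from the same mice, so the lists are not independent. Rps27, a 40S zinc finger protein, had 179, 198 and 196 CPM in Lgr5med NRG1 and 480, 341 and 374 CPM in Lgr5med PBS libraries (log2 change -1.04, SE 0.15, adjusted p = 0.00102). In Lgr5high cells its change was -0.93 (SE 0.25, adjusted p = 0.0694), with 150, 196 and 217 CPM in NRG1 and 489, 343 and 251 CPM in PBS libraries.

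Among the genes that rose in Lgr5med cells, Rps19 (log2 change 0.62) and Rps7 (0.60) are 40S proteins in which mutations cause Diamond-Blackfan anaemia in humans. The number that rose was 14 without NRG1 replicate 3, 4 without NRG1 replicate 1 or 2, and 1 without PBS replicate 2 or 3. Both lost their call without PBS replicate 2 or 3 (adjusted p up to 0.162), and Rps19 also without NRG1 replicate 1 or 2 and in the model of all 24 libraries (0.0836). The share of counts in the 76 genes gave a log2 ratio of -0.04 with all libraries, between -0.18 and 0.10 with 1 library left out.

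In Lgr5low cells none of the 75 genes passed the threshold with edgeR, against 0.143% higher and 0.3% lower of all genes tested, and 19 had an unadjusted p under 0.05. DESeq2 called 3 higher and 5 lower. With the replicate number as a block edgeR called 4 higher and 7 lower, and without PBS replicate 3 it called 2 lower. No share of all genes is given here for the unadjusted p or for these settings. The median log2 change was 0.17. Rps6, the protein phosphorylated by S6 kinase downstream of mTORC1, had 264, 225 and 191 CPM in Lgr5low NRG1 and 120, 156 and 154 CPM in Lgr5low PBS libraries (log2 change 0.67, SE 0.16, adjusted p = 0.0916).

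In Lgr5neg cells 9 of 75 genes rose after NRG1 and none fell with edgeR, against 0.151% higher and 0.176% lower of all genes tested. The median log2 change was 0.40, and 48 genes had an unadjusted p under 0.05 in either direction. DESeq2 called 23 higher and 1 lower, and edgeR with the replicate number as a block called 39 higher and 6 lower. The shares of all genes at that unadjusted p and in these settings are not given here. Rpl10a had 223, 344 and 327 CPM in Lgr5neg NRG1 and 128, 129 and 147 CPM in Lgr5neg PBS libraries (log2 change 1.15, SE 0.19, adjusted p = 0.0269). Rps6 (chr4:86854660-86857412) had 127, 134 and 108 CPM in NRG1 and 64.5, 61.9 and 58.0 CPM in PBS libraries (log2 change 1.01, SE 0.15, adjusted p = 0.0269). The groups did not overlap for either gene. The other 7 included Rpl10, Rpl14, Rpl29, Rps7, Rps19 and Rps28, and 8 of the 9 were also higher in Lgr5med cells (88.9% of each list).

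The Lgr5neg count of 9 was 10 without NRG1 replicate 1, 0 without NRG1 replicate 2, or without any of the 3 PBS replicates, and 4 without NRG1 replicate 3. Immune markers were highest in NRG1 replicate 2, at 474 CPM, which also had the highest share of counts in ribosomal protein genes of its group, 1.66%. Goblet markers summed to 1182 to 3643 CPM in Lgr5neg NRG1 and 4639 to 6562 CPM in Lgr5neg PBS libraries, without overlap. Enterocyte markers summed to 18071 to 30177 CPM in NRG1 and 27330 to 54991 CPM in PBS libraries, which overlapped. The part of these cells in the Lgr5neg difference was not tested.

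The order of the genes by their response was alike in the 4 populations even where the median moved. Spearman's rho between populations was 0.83 to 0.95 over 75 genes, as a description, since the same 6 mice gave all populations. The log2 change was negative in all 4 populations in 13 genes, positive in all 4 in 12 genes, and negative in Lgr5high and positive in Lgr5neg cells in 50 genes. How many of all genes tested had these signs is not given here. Rps25, Rpl37a, Rpl37, Rps29 and Rps27 stood at the negative end and Rpl10a and Rps6 at the positive end.

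**Figure D3:**
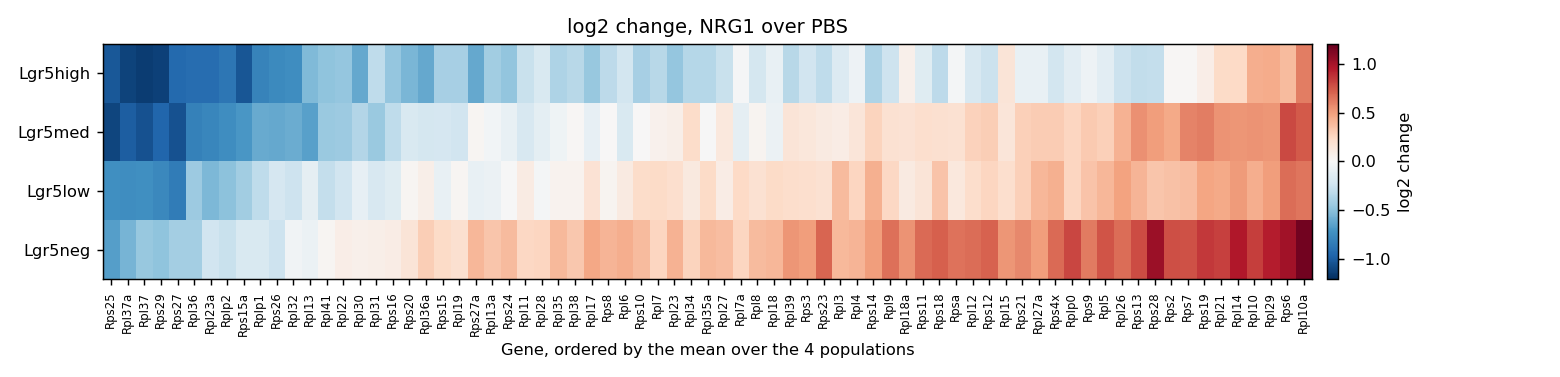
log2 change, NRG1 over PBS, of 73 of the 75 ribosomal protein genes tested (columns, ordered by the mean over populations) in the 4 populations (rows); blue is lower in NRG1, red is higher. Rps25 is at the far left and Rpl10a at the far right, and genes in the middle turn from blue in Lgr5high to red in Lgr5neg cells.

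Coding length and the response moved together over the genes. Spearman's rho between coding length and log2 change was 0.59 in Lgr5high, 0.42 in Lgr5med, 0.50 in Lgr5low and 0.45 in Lgr5neg cells, over 75 genes that share the same libraries. Coding length also moved with differences between populations within a treatment. For Lgr5high against Lgr5med cells rho was 0.43 in PBS and 0.53 in NRG1 mice. For Lgr5med against Lgr5low cells it was -0.28 and -0.30 in the same order. It was 0.26 and 0.23 for Lgr5low against Lgr5neg, and 0.30 and 0.46 for Lgr5high against Lgr5neg cells. In Lgr5high cells the 9 genes with up to 300 coding bases had a median log2 change of -0.48 and the 27 genes of over 300 and up to 450 bases one of -0.46, against -0.30 over all 75. The shortest genes differed among themselves, with -1.12 in Rps29 (168 bases) and -0.09 in Rps21 (249 bases). Other coding genes leaned the same way by less there, with medians of -0.23 for 226 genes of up to 300 bases and 0.06 for the 5146 genes of the longest class. In Lgr5neg cells the medians for the shortest class were 0.02 in ribosomal protein genes and -0.05 in 207 other genes.

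A measure of the libraries also moved with treatment. The counts of mt-Rnr1 per 100 counts of mt-Rnr2, the small and large mitochondrial ribosomal RNAs, were 38.0 to 54.2 in the 12 NRG1 libraries and 18.1 to 32.1 in 11 of the PBS libraries. The other PBS library, Lgr5high replicate 3, had 42.9. It was also the PBS library nearest the NRG1 libraries in Rps27 and Rpl37. The part of RNA or library quality in the response was not tested.

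**Figure D4:**
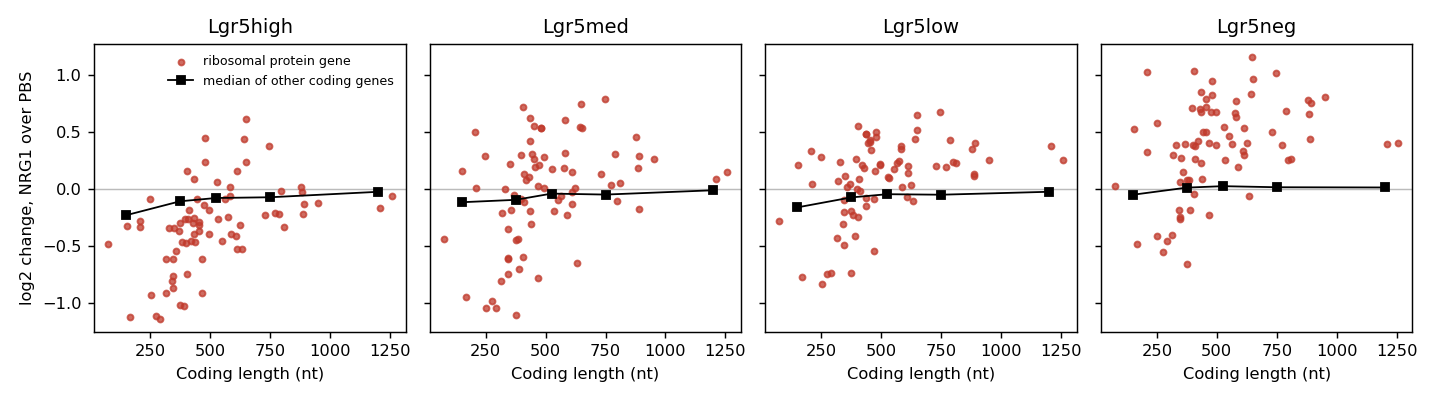
log2 change, NRG1 over PBS, against coding length (nt) for 75 ribosomal protein genes (red) in each population, with the median of other coding genes by length class (black, at class midpoints). In Lgr5high cells the ribosomal protein genes of up to 300 nt have a median of -0.48 and those of over 300 and up to 450 nt one of -0.46, where other genes of up to 300 nt have a median of -0.23, and Rps21, of 249 nt, lies at -0.09.

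A single gene responded differently in Lgr5high and in Lgr5neg cells by the test of that difference, against 0.0133% higher and 0.0399% lower of all genes tested. Rps28, a 40S protein, had 55.3, 59.1 and 69.7 CPM in Lgr5high NRG1 and 62.2, 65.8 and 98.2 CPM in Lgr5high PBS libraries. In Lgr5neg cells it had 46.0, 43.7 and 36.0 CPM in NRG1 and 20.4, 21.2 and 20.7 CPM in PBS libraries. The difference of the 2 responses was -1.31 on the log2 scale (SE 0.24, adjusted p = 0.0316 in edgeR's test). Over the 76 genes the median difference was -0.68, and 62 had an unadjusted p under 0.05. With mouse as a block 16 genes passed the threshold, with DESeq2 7, and without Lgr5high NRG1 replicate 1 or 2, Lgr5high PBS replicate 3, Lgr5neg NRG1 replicate 1 or 2, or any of the Lgr5neg PBS replicates, none. No gene passed for Lgr5high against Lgr5med (median -0.33) or Lgr5low (median -0.41) with edgeR or DESeq2, where 0% of all genes tested were called by edgeR and 8 and 20 of the 76 had an unadjusted p under 0.05. Beside these unadjusted counts, and those of the other settings, the share of all genes is not given here.

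The P stalk recruits elongation factors. Rplp0, its scaffold, had a log2 change after NRG1 of -0.12 in Lgr5high and 0.81 in Lgr5neg cells (adjusted p = 0.659 and 0.0543). Rplp2 fell by 0.87 in Lgr5high and by 0.75 in Lgr5med cells (adjusted p = 0.0186 and 0.0063), the first lost without PBS replicate 2 (0.0982). Rplp1 changed by -0.81 in Lgr5high cells without passing the threshold (adjusted p = 0.166). Rpl5 and Rpl11 of the 5S particle had changes of -0.13 and -0.26 in Lgr5high cells, neither called, and 0.75 and 0.25 in Lgr5neg cells, neither called.

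Several genes of the ribosome fall outside the name pattern. Gnb2l1, which encodes the 40S scaffold Rack1, was 2.95-fold higher in Lgr5high than in Lgr5neg cells of PBS mice. Rps3a1 fell by 0.76 on the log2 scale after NRG1 in Lgr5high cells (adjusted p = 0.00297). Fau, whose product is cleaved to a 40S protein and a ubiquitin-like peptide, ran the other way between populations. It had 64.8, 63.1 and 60.3 CPM in Lgr5high NRG1 and 156, 113 and 114 CPM in Lgr5neg NRG1 libraries, and 75.1, 68.3 and 73.9 CPM in Lgr5high PBS and 159, 128 and 120 CPM in Lgr5neg PBS libraries. The log2 difference, Lgr5high over Lgr5neg, was -1.08 in NRG1 mice and -0.91 in PBS mice (adjusted p = 0.00029 and 1.3e-05).

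After NRG1 Rpl22 was lower in stem cells, and its paralogue Rpl22l1 was called higher in Lgr5med and Lgr5neg cells. Rpl22, a 60S protein, had 165, 184 and 175 CPM in Lgr5high NRG1 and 267, 258 and 204 CPM in Lgr5high PBS libraries (log2 change -0.46, SE 0.13, adjusted p = 0.0338), and in Lgr5med cells its change was -0.44 (adjusted p = 0.0541). Its call in Lgr5high cells held only without PBS replicate 3 among the libraries left out (adjusted p up to 0.123 without another) and not in the model of all 24 libraries (0.0906). In Lgr5med cells Rpl22l1 had 30.5, 23.4 and 28.6 CPM in NRG1 and 14.7, 13.6 and 12.0 CPM in PBS libraries, a log2 change of 1.05 (SE 0.15, adjusted p = 0.00124). It also rose in Lgr5neg cells, by 1.15 on the log2 scale (adjusted p = 0.0377), with no overlap between groups, and that call held only without NRG1 replicate 1 among the libraries left out (up to 0.199 without another). In Lgr5high cells its change of 0.51 was not called (adjusted p = 0.0881). In Lgr5low cells it had 25.4, 23.7 and 19.7 CPM in NRG1 and 9.92, 13.2 and 15.5 CPM in PBS libraries. These Lgr5low groups did not overlap, and edgeR did not call the gene there. Only 6.52% of the windows of Rpl22 were found in other genes. Rps27rt, the retrogene of Rps27, fell by 1.51 in Lgr5high and 1.16 in Lgr5med cells, at 1.42 to 6.84 CPM in those libraries.

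**Figure D5:**
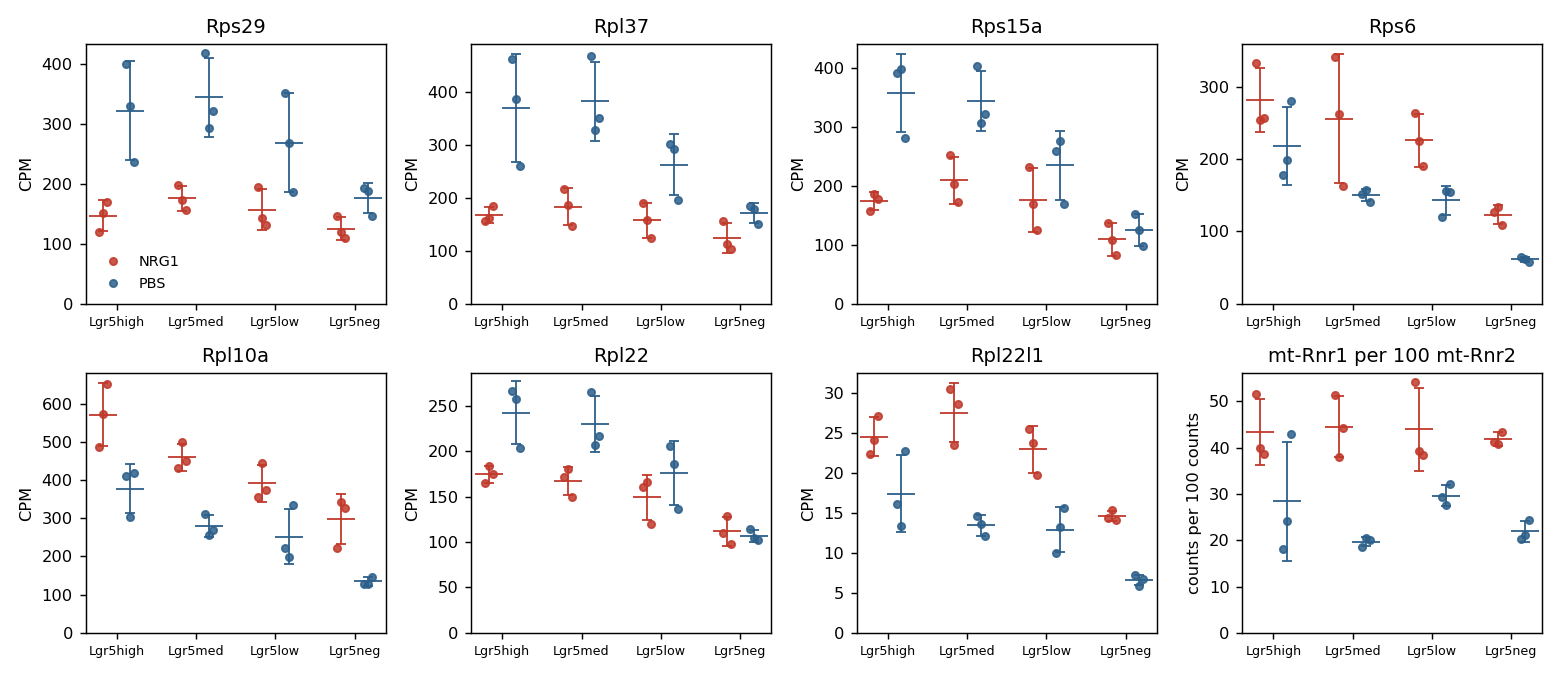
CPM of 7 genes and counts of mt-Rnr1 per 100 mt-Rnr2 (bottom right), 1 point per library with mean and SD of 3 mice, NRG1 left of PBS. Rps29, Rpl37 and Rps15a are lower in Lgr5high NRG1 than in Lgr5high PBS libraries, and Rpl10a and Rpl22l1 are higher in Lgr5neg NRG1 than in Lgr5neg PBS libraries.

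Genes that build ribosomes were lower after NRG1 where they were called. Of 29 ribosome biogenesis genes, 4 (13.8%) were lower after NRG1 in Lgr5high and 8 (27.6%) in Lgr5med cells and none were higher, against 4.15% and 5.79% lower of all genes tested, with medians of -0.28 and -0.26. Gar1, of the box H/ACA particle, fell by 0.81 in Lgr5high and 1.10 in Lgr5med cells, and Rrs1, a 60S assembly factor, by 0.86 and 0.82. Rrs1 lost its Lgr5high call without PBS replicate 2 (adjusted p = 0.0595). None was called in Lgr5low or Lgr5neg cells, where 6 and 3 had an unadjusted p under 0.05. The share of all genes under that p is not given here. In PBS mice all 29 stood higher in Lgr5low than Lgr5neg cells, against 30.6% of all genes tested, with a median of 1.88. Of 11 chaperones and assembly partners, 2 were lower in Lgr5high cells, and 1 was higher and 3 were lower in Lgr5med cells, against 4.15% lower of all genes in Lgr5high, and 3.76% higher and 5.79% lower in Lgr5med cells. Among 24 mTORC1 and translation control genes, Myc fell by 0.55 in Lgr5high cells (adjusted p = 0.0085) and Mxd4, a Myc antagonist, rose by 0.62 (adjusted p = 0.0241). There 3.18% of all genes tested were higher and 4.15% lower, and how many of the 24 were called is not given here. The part of Myc and Mxd4 in the ribosomal protein genes was not tested. In the model of all 24 libraries neither Myc nor Mxd4 was called (adjusted p = 0.124 and 0.0781), and Mxd4 was not without NRG1 replicate 1 or 3 or PBS replicate 2.

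Other transcripts with a known TOP tract were called in both directions. Against 3.18% higher and 4.15% lower of all genes, of 19 translation factor and related genes tested in Lgr5high cells, 1 fell, Eef1b2 (log2 change -0.60), and the median was -0.16. Among 5 snoRNA host genes there, Snhg12 (-0.70) and Gas5 (-0.53) fell and Snhg1 rose (0.52). Of these Eef1b2, Snhg12 and Snhg1 were not called in the model of all 24 libraries or without NRG1 replicate 2 or 3, Eef1b2 and Snhg1 not without PBS replicate 2 or 3, and Snhg1 not without NRG1 replicate 1. In Lgr5med cells Snhg1 (0.83) and Snhg6 (0.73) rose, Snhg6 not without NRG1 replicate 1 or 2 or PBS replicate 2 or 3, nor in the model of all 24 libraries. In Lgr5low cells Snhg1 rose by 0.78 (adjusted p = 0.0445), a call that held only without NRG1 replicate 3 among the libraries left out (up to 0.318 without another). Of 46 mitochondrial ribosomal protein genes, 6 fell in Lgr5high cells and 1 rose and 5 fell in Lgr5med cells, with medians of -0.09 and -0.15. In Lgr5high cells 4.15% of all genes were lower, and in Lgr5med cells 3.76% were higher and 5.79% lower. In PBS mice 20 of these 46 (43.5%) were higher and 7 (15.2%) lower in Lgr5high than in Lgr5neg cells, against 35.4% higher and 32% lower of all genes tested, with a median log2 difference of 0.39.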

How the data were processed

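The deposited table holds raw gene counts for 24 libraries. The submitters' processing notes name STAR, featureCounts and the build GRCm38; versions, annotation and strand setting are not given in the sources used here. Per the labels, the authors made single-read libraries of 76 nt from 15 ng of RNA with NuGEN Ovation kits. Every count is a read, with no molecular identifiers, and 3 counts equal 0.112 to 0.247 CPM.

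The 76 members and the gene lists were chosen with earlier results of these data known. Genes were filtered with edgeR's filterByExpr (minimum count 10, minimum total 15), scaled by TMM and tested with the robust quasi-likelihood test (edgeR 4.0.16, R 4.3.3). The comparisons were NRG1 against PBS in a population (6 libraries), populations within each treatment (12 libraries), and responses between populations in a model of all 24. Named genes were all called members where there were up to 12, otherwise the 6 largest rises and falls, the 3 farthest above and below the median, the 5 highest and lowest per transcript length and a fixed set; of other lists the 2 largest changes in each direction. The code was tested on simulated data. DESeq2 1.42.0 and other settings are in the closing section. The main NRG1 against PBS tests held no term for replicate number, and replicate number as a block was an alternative setting. NRG1 and PBS libraries came from different mice. Deviations of same-numbered libraries correlated in Lgr5low and Lgr5neg cells (0.131 to 0.173 and 0.102 to 0.180). Libraries of unlike number were not compared. By the labels each mouse gave all 4 populations. The main tests between populations, and of responses between populations, held no term for mouse. Mouse as a block was an alternative setting. Deviations of libraries of the same mouse in 2 populations correlated at -0.00334 to 0.288, over 0.1 in 16 of 24 pairs. Shared windows were read from GENCODE vM21 transcripts, pseudogenes included, in place of a genome, on both strands and exactly. No library was dropped. A few genes are not reported by name here. Coordinates are GRCm38.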

Additional observations from a re-analysis of the deposited data

Results flagged for a closer look

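The difference between the NRG1 responses of Lgr5high and Lgr5neg cells passed the threshold for Rps28 (-1.31 on the log2 scale, adjusted p = 0.0316 in edgeR's test). It was higher in all 3 Lgr5neg NRG1 libraries than in all 3 Lgr5neg PBS libraries, while the Lgr5high groups overlapped.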

How the results depend on the processing

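Each count of called genes was recomputed with DESeq2, DESeq2's size factors, TMM without the 76 genes, without mitochondrial ribosomal RNA, without a filter on low counts, with pseudogene rows added, with all 24 libraries in 1 model, with a replicate block and with 1 library left out. Shares of all genes called under these settings are not given here. A rise in these genes thus cannot be told from a rise over all genes. Counts that moved by over 1.5 times were the following, and the cause was not tested. After NRG1 in Lgr5high cells, the 1 gene higher became 3 with DESeq2, 3 without the filter, 3 with the replicate block and 0 in the model of all 24 libraries, and the 23 lower became 14 in that model. In Lgr5low cells, the 0 higher became 3 with DESeq2, 4 without the filter and 4 with the block, and the 0 lower became 5, 6 and 7. In Lgr5neg cells, the 9 higher became 23 with DESeq2, 24 without the filter, 18 in the model of all 24 and 39 with the block, and the 0 lower became 1, 1 without the filter and 6 with the block. In PBS mice, the 5 genes higher in Lgr5high than in Lgr5med cells became 13 with DESeq2, 8 without the filter, 0 in the model of all 24 and 9 with mouse as a block, and the 9 higher in Lgr5med than in Lgr5low cells became 19, 19, 4 and 22. For the difference of the Lgr5high and Lgr5neg responses, the 1 gene lower became 7 with DESeq2, 21 without the filter and 16 with mouse as a block.

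With 1 library left out, the counts after NRG1 ran from 0 to 6 higher and 12 to 24 lower in Lgr5high, 1 to 14 higher and 8 to 13 lower in Lgr5med, 0 to 2 lower in Lgr5low, and 0 to 10 higher in Lgr5neg cells. Between populations they ran from 0 to 4 (Lgr5high over Lgr5med, PBS), 0 to 9 (Lgr5med over Lgr5low, PBS), 0 to 1 (Lgr5med over Lgr5low, NRG1) and 15 to 52 (Lgr5low over Lgr5neg, NRG1), and from 0 to 1 for the difference of the Lgr5high and Lgr5neg responses. With all counts as the denominator of the share, the log2 ratios were 1.56 in place of 1.27 for Lgr5low over Lgr5neg in PBS mice, 2.24 in place of 1.96 for Lgr5high over Lgr5neg in PBS mice, and 1.64 in place of 1.25 for Lgr5high over Lgr5neg in NRG1 mice.

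Of the values of single named genes under these settings, 2035 kept their side of the threshold, 238 kept their direction only and none reversed. Deviations of same-numbered libraries correlated at 0.0846, 0.227 and 0.0695 in Lgr5high cells (replicates 1, 2 and 3). In Lgr5med cells they correlated at 0.207, 0.0700 and 0.155. The replicate block gave 3 higher and 21 lower in Lgr5high and 13 higher and 16 lower in Lgr5med cells. The block moved no other count by over 1.5 times. Rpl24 had too few counts to be tested after NRG1.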
